A study of Mus musculus with 6 samples.

Results

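Laminins, nidogens, perlecan and agrin build the basement membrane, the sheet of matrix that wraps muscle fibres, capillaries and nerves. The 10 genes described here are the laminin chain genes Lama2, Lama4, Lama5, Lamb1, Lamb2 and Lamc1, the nidogen genes Nid1 and Nid2, the perlecan gene Hspg2 and the agrin gene Agrn. They were chosen by name, and all 10 were found, each once, among the 23361 genes of the authors' deposited table. A laminin is a trimer of an alpha, a beta and a gamma chain that polymerises into a network on the cell surface. Nidogens tie that network to the collagen IV network, and the heparan sulfate proteoglycans perlecan and agrin strengthen it and bind growth factors and cell surface receptors. In skeletal muscle this layer also forms part of the niche in which satellite cells, the stem cells of muscle, lie against the fibre.

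RNA was sequenced from cells of hindlimb muscle of mice aged 4 months. The cells were released with collagenase and sorted for Sdc4, a surface proteoglycan of satellite cells. There were 3 samples of AUF1-null (KO) mice and 3 of wild type (WT) mice, all bred through C57BL/6 with 129 background; the labels do not say which part of the AUF1 gene was altered, or whether samples of a genotype came from separate mice. AUF1 is the protein of the Hnrnpd gene; it attaches to AU-rich stretches in the 3' untranslated regions of mRNAs and thereby alters mRNA decay. The study compared transcript levels of both genotypes. The authors' deposited table gives 1 value per gene for each of its conditions q2 and q1, on the FPKM scale (fragments counted per unit of transcript length and of library size), pooled over replicates. It does not say which condition is AUF1-null, so every direction is q2 relative to q1 and not that of a genotype. The deposited table's name lists wild type ahead of knockout, but nothing in the table ties that order to q1 and q2, and no genotype was assigned from it. With 1 pooled value a condition there is no spread between samples beside a value, and depth per sample is unknown. Hnrnpd does not settle the assignment, at 5.59 FPKM in q2 and 7.5 FPKM in q1 in the authors' deposited table, where Cuffdiff gave p = 0.291.

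None of the 10 basement membrane genes differed between the conditions by the authors' test. All 10 were tested, and 0 had a Cuffdiff q below 0.05, where 0.612% of the 14858 tested genes did, 0.498% higher and 0.114% lower in q2; 0 also had an unadjusted p below 0.05, where 5.99% of tested genes did, 2.27% with a lower and 3.72% with a higher value in q2. The log2 fold changes of 9 of the 10 lay below 0 as deposited, against 51.3% of all tested genes with both values above 0, but only 6 of the 10 did when set against genes of like transcript length, as described further on. Their median was -0.32 as deposited and -0.09 against genes of like length, beside a median of -0.01 as deposited over those 14779 genes. Each of the 10 had q = 0.999 in the authors' deposited table. A missed threshold does not show that levels were alike. Among the 7826 genes with 5 to 70 FPKM on the higher side, which covers all 10, 43 passed, 38 higher and 5 lower in q2. The smallest fall that passed q was 3.07-fold and the smallest rise 3.17-fold, so the limit for falls rests on 5 genes. At an unadjusted Cuffdiff p below 0.05, met by 496 of these genes, the smallest fall was 1.58-fold and the smallest rise 1.62-fold. The widest difference among the 10, that of Lama5, was 1.54-fold.

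**Figure D1:**
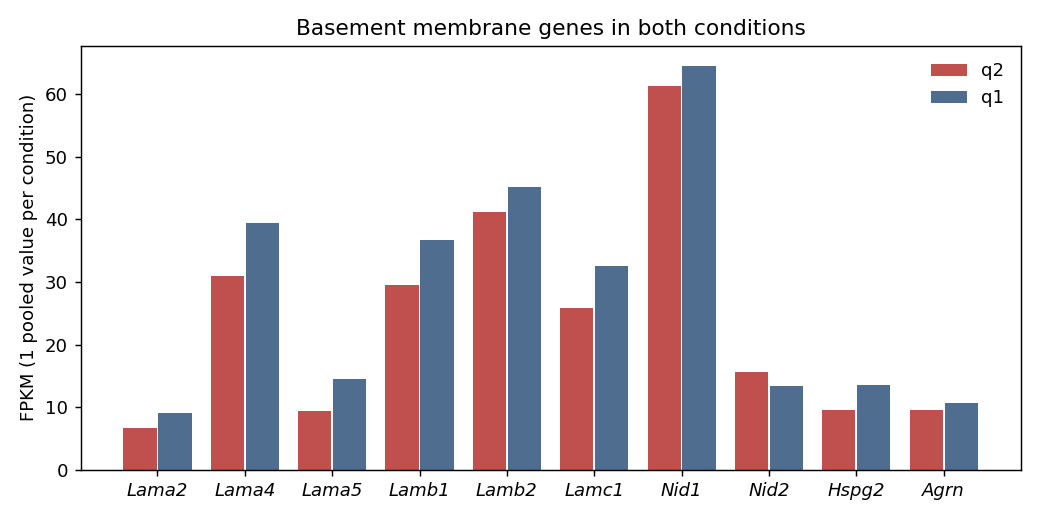
Levels of the 10 basement membrane genes, in FPKM, in q2 (left bar of each pair) and q1 (right bar), 1 pooled value per condition with no error bars. Nid1 had the highest bars, at 61.4 in q2 and 64.5 in q1, and Nid2 alone had the taller bar in q2.

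Since AUF1 binds AU-rich elements, the longest annotated 3' untranslated region of each gene was read for them (GENCODE vM21, GRCm38, transcript strand only). Of the 10 genes, 5 held the pentamer ATTTA and 3 held it inside the longer octamers ATATTTAA, ATATTTAT, TTATTTAA or TTATTTAT. Over the 13063 tested genes with an annotated region, of median length 1136 bases, 69.3% held the pentamer and 32.3% an octamer. These shares depend on length. Among genes with a region within 20% of the length of each of the 10, the pentamer share ran from 15.1% for Lamb2 to 93.8% for Lamc1. It was 22.5% to 26.3% for Lama2, Lama4, Lama5 and Lamb1. For Nid2 it was 55.1%, for Hspg2 72.0%, for Agrn 78.8% and for Nid1 91.5%. The 4 octamers are printed below because they are the longer AU-rich matches among these genes. Each line shows 30 bases of the transcript strand, 5' to 3', with the octamer in capitals.
Lama5, chr2:180176425-180176454, minus strand: gaacagatattATATTTATactttgttcct
Lamc1, chr1:153218940-153218969, minus strand: aaaacagtattTTATTTATaataaaatctg
Nid2, first site, chr14:19811446-19811475, plus strand: tttgtaaacagTTATTTAAaaggccaaatt
Nid2, second site, chr14:19811639-19811668, plus strand: gtcctcagactTTATTTATactaaggtgct

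All 4 lie in the last exon, which is exon 79 of Lama5, exon 28 of Lamc1 and exon 21 of Nid2. The region of Lama5 is only 174 bases long, and 5.95% of genes with a region within 20% of that length held an octamer. For Lamc1, at 2551 bases, that share was 50.6%, and for Nid2, at 591 bases, 19.1%. Lamc1 held 6 pentamers, Nid2 2, and Lama5, Lamb1 and Nid1 1 each. The regions of Lama2, Lama4, Lamb2, Hspg2 and Agrn, of 110 to 1206 bases, held none. Of the 3 genes with an octamer, Lama5 had the lowest log2 fold change of the 10, at -0.63, and Nid2 the highest, at 0.21. Lamc1 lay between them, at -0.33. Both sites of Nid2 lie in bases shared with a gene on the other strand, as described further on. A link between these matches and the fold changes was not tested. A match is a string of letters and not a bound site, and binding was not measured here.

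Among the laminin alpha chains, which bind cell receptors through their C-terminal globular domains, Lama4 had the highest level, and of the 3 in the set Lama5 had the log2 fold change farthest from 0. Lama4 (chr10:38965515-39110188) codes for the alpha4 chain of endothelial basement membranes and was at 31.0 FPKM in q2 and 39.5 FPKM in q1 in the authors' deposited table. The difference, -0.35 on the log2 scale, did not pass (Cuffdiff p = 0.307 in the authors' deposited table). Lama5 (chr2:180176373-180225859), whose alpha5 chain is found in mature vascular and epithelial basement membranes, was at 9.43 FPKM in q2 and 14.6 FPKM in q1 in the authors' deposited table. This is a log2 fold change of -0.63 (Cuffdiff p = 0.0943 in the authors' deposited table), and 6.5% of the 7826 genes of 5 to 70 FPKM had a lower one. Lama2 (chr10:26981285-27616942) codes for the alpha2 chain, the main alpha chain around muscle fibres, and its loss causes a congenital muscular dystrophy. It had the lowest level of the 10 in both conditions, 6.61 FPKM in q2 and 9.02 FPKM in q1, with a log2 fold change of -0.45 (Cuffdiff p = 0.191 in the authors' deposited table). In GENCODE, 631 exon bases of Lama2 are shared with the antisense gene Gm48084. No source used here gives the strand setting of the authors' counting, so reads there cannot be told apart.

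Each laminin trimer also holds a beta and a gamma chain. The values of Lamb1, Lamb2 and Lamc1 in q2 were also the lower ones as deposited, without passing the test. Against genes of like length, Lamb2 lay slightly above 0. Lamb2 (chr9:108479862-108490530), the beta2 chain enriched at the neuromuscular junction, was at 41.2 FPKM in q2 and 45.1 FPKM in q1 in the authors' deposited table. Lamb1 (chr12:31265294-31329639), the more widespread beta1 chain, was at 29.5 FPKM in q2 and 36.7 FPKM in q1 by the authors' deposited table. Their log2 fold changes were -0.13 for Lamb2 and -0.31 for Lamb1 (Cuffdiff p = 0.734 and 0.431 in the authors' deposited table). Lamc1 (chr1:153218922-153332786) codes for gamma1, the gamma chain of most laminins and the one that nidogen binds. It was at 25.9 FPKM in q2 and 32.5 FPKM in q1, with a log2 fold change of -0.33 (Cuffdiff p = 0.356 in the authors' deposited table).

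Added up by chain type, the alpha genes Lama1 to Lama5 came to 49.5 FPKM in q2 and 67.0 FPKM in q1, the beta genes to 71.1 FPKM in q2 and 82.1 FPKM in q1, and the gamma genes Lamc1 and Lamc3 to 26.9 FPKM in q2 and 33.9 FPKM in q1. The make-up of each type was close in both conditions. Lama4 supplied 62.6% of the alpha sum in q2 and 58.9% in q1. Lama5 supplied 19.1% in q2 and 21.7% in q1. For Lama2 the share was 13.4% in q2 and 13.5% in q1, so the chain typical of muscle fibres was a minor part of the alpha sum in these sorted cells. Among beta genes, Lamb2 made up 58.0% in q2 and 55.0% in q1. Lamc1 made up 96.2% of the sum with Lamc3 in q2 and 95.9% in q1. No spread stands behind these shares, so their differences were not tested.

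**Figure D2:**
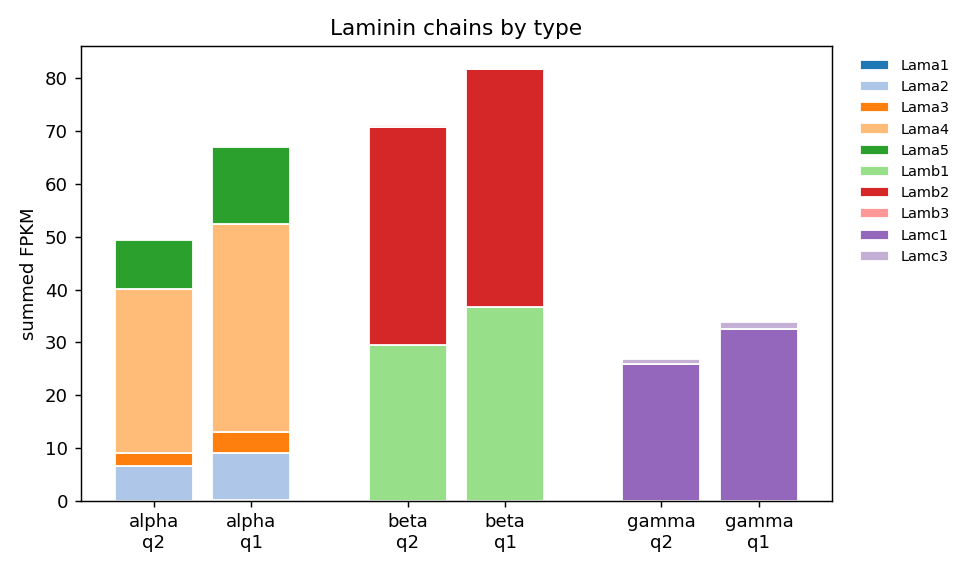
Summed FPKM of the laminin alpha and beta chain genes and of the gamma chain genes Lamc1 and Lamc3 in q2 (left bar of each pair) and q1 (right bar), stacked by gene. Lama4 is the widest alpha segment and Lamc1 nearly fills the gamma bars; Lama1 and Lamb3 are too low to see.

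The 4 other laminin chain genes described here were low. Lama3 of epithelial laminins was at 2.46 FPKM in q2 and 3.93 FPKM in q1, with a log2 fold change of -0.68 that did not pass (Cuffdiff p = 0.125 in the authors' deposited table). Lamc3, which codes for a gamma chain, was at 1.03 FPKM in q2 and 1.39 FPKM in q1 in the authors' deposited table. Lama1, the alpha chain of early embryonic basement membranes, at 0.0020 FPKM in q2 and 0.026 FPKM in q1, and Lamb3, at 0.372 FPKM in q2 and 0.270 FPKM in q1, were not tested by the authors according to the authors' deposited table. The chains of laminins with alpha4, alpha5 or alpha2, beta1 or beta2, and gamma1 were therefore the abundant ones among those described in both conditions.

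The nidogens, which bridge laminin gamma1 and collagen IV, included the gene with the highest level of the 10 and the only one listed higher in q2 as deposited; against genes of like length Nid1 lay above 0 too. Nid1 (chr13:13437602-13512275) was at 61.4 FPKM in q2 and 64.5 FPKM in q1, a log2 fold change of -0.07 (Cuffdiff p = 0.850 in the authors' deposited table). Nid2 was at 15.5 FPKM in q2 and 13.4 FPKM in q1, a log2 fold change of 0.21 (Cuffdiff p = 0.773 in the authors' deposited table). The level of Nid1 was 3.95 times that of Nid2 in q2 and 4.80 times in q1. Nid2 needs care. Its position in the authors' deposited table, chr14:19751257-19823823, is shared with 2700060E02Rik, a gene on the other strand. In GENCODE, 437 exon bases at the 3' end of Nid2, chr14:19811351-19811787, are shared with that neighbour, listed there as Rtraf. Both AU-rich sites of Nid2 printed above lie inside those bases. 2700060E02Rik was at 82.3 FPKM in q2 and 83.7 FPKM in q1 in the authors' deposited table, well above Nid2 in both. How reads in the overlap were assigned is stated in no source used here. Nid1 shares 143 exon bases with the antisense gene Gm48682.

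The proteoglycan genes were among the lower of the 10 by level. Hspg2 (chr4:137468803-137570630), which codes for perlecan, was at 9.50 FPKM in q2 and 13.5 FPKM in q1 in the authors' deposited table. That log2 fold change of -0.51, the lowest after Lama5, did not pass (Cuffdiff p = 0.135 in the authors' deposited table). Agrn (chr4:156165290-156197488) codes for agrin, whose nerve-derived splice forms cluster acetylcholine receptors under the motor nerve, while other forms are made by many cells. It was at 9.46 FPKM in q2 and 10.6 FPKM in q1, with a log2 fold change of -0.16 that turned to 0.05 against genes of like length (Cuffdiff p = 0.643 in the authors' deposited table). The values are per gene and do not separate splice forms. Perlecan and agrin transcripts stood level in q2, while the ratio of perlecan to agrin was 1.28 in q1.

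By level, averaged over both conditions, the order was Nid1, Lamb2, Lama4, Lamb1, Lamc1, Nid2, Lama5, Hspg2, Agrn and Lama2. Nid1 exceeded 89.3% of tested genes and Lama2 50.4%. The order of the upper 5 was the same in q2 as in q1. Below them, Nid2 came first in q2 and Lama5 in q1. Since no spread is available, neighbours in this order cannot be told to differ.

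Transcript length moved with the fold changes of these genes and of genes at large. In GENCODE the longest protein-coding transcripts of the 10 run from 4876 bases for Nid2 to 14187 bases for Hspg2, with a median of 6676.5. Over the 8536 tested genes of at least 5 FPKM on the higher side with an annotated length, the median log2 fold change was 0.15 for transcripts of at most 1000 bases. It was lower in each longer class, at -0.07 for 4000 to 5000 bases, -0.14 for 5000 to 6000, -0.17 for 6000 to 7000, -0.21 for 7000 to 9000, -0.32 for 9000 to 12000 and -0.44 above 12000. Spearman's rho between length and log2 fold change over these genes was -0.29, as a description across genes, which are not independent.

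Less the median of its own length class, the log2 fold change was -0.31 for Lama5, -0.18 for Lama4, -0.17 for Lamb1, -0.13 for Lama2, -0.12 for Lamc1 and -0.07 for Hspg2. It was 0.01 for Lamb2, 0.05 for Agrn, 0.10 for Nid1 and 0.28 for Nid2. On this scale 6 genes lay below 0 and 4 above, where 50% of the genes used lie below 0 by construction. Lamb2, Agrn and Nid1 thus turned from below to above 0. Among these genes, Hspg2 shows the most difference between the scales, at -0.51 as deposited and -0.07 less the median of its class, which was -0.44. Lama5 kept the lowest value on both scales. The part of transcript length in the differences was not tested.

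**Figure D3:**
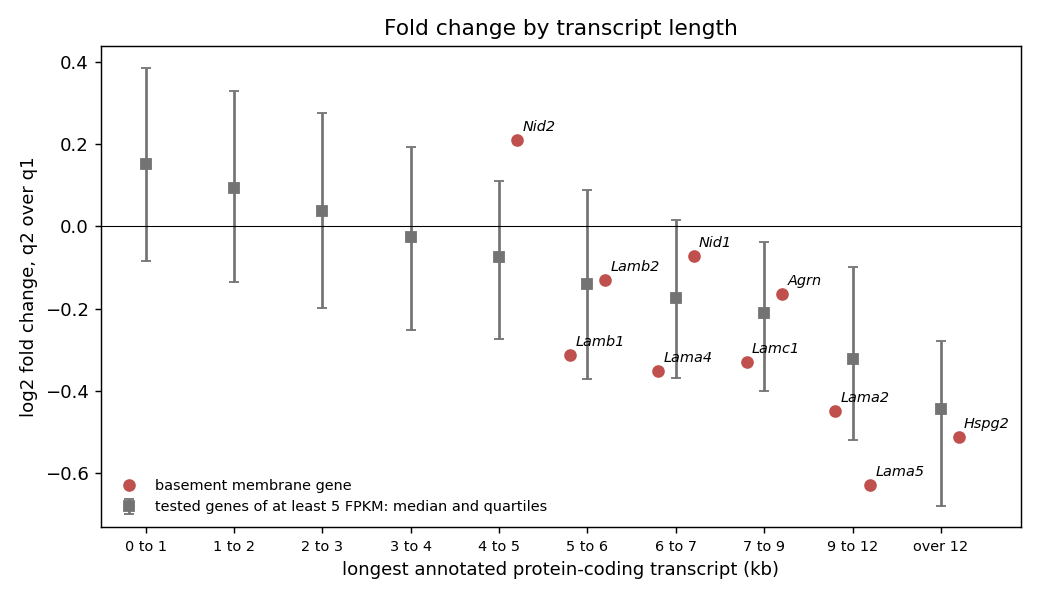
Log2 fold change, q2 over q1, by length of the longest annotated protein-coding transcript. Squares and bars are the median and quartiles of tested genes of at least 5 FPKM, lower in each longer class down to -0.44 above 12000 bases; circles are the 10 basement membrane genes, shifted sideways within their class for legibility.

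The partners of these proteins at the basement membrane were examined with 7 further lists. In the other basement membrane list, 0 of 19 tested genes passed, 15 lay below 0 and the median log2 fold change was -0.17; against genes of like length, 13 lay below 0 and the median was -0.05. Col4a1, which with Col4a2 forms the main collagen IV, was at 81.0 FPKM in q2 and 114 FPKM in q1 in the authors' deposited table. Col4a2, named after its values were seen, was at 48.1 FPKM in q2 and 68.9 FPKM in q1 in the authors' deposited table. The level of Col4a1 was 1.68 times that of Col4a2 in q2 and 1.66 times in q1. Col18a1, the source of endostatin, had an unadjusted p below the threshold without passing, at 8.78 FPKM in q2 and 14.8 FPKM in q1 (in the authors' deposited table, Cuffdiff p = 0.0431 and q = 0.792). Fbln2 of elastic fibres and vessel walls was at 202 FPKM in q2 and 294 FPKM in q1, and the matrix protein gene Tinagl1 at 119 FPKM in q2 and 134 FPKM in q1 in the authors' deposited table.

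All 7 tested laminin receptors lay below 0 and none passed, with a median log2 fold change of -0.38. On the length-centred scale all 7 also lay below 0, with a median of -0.27. Itga3, the alpha3 integrin chain that binds laminins with alpha5, was at 4.34 FPKM in q2 and 10.2 FPKM in q1 (in the authors' deposited table, Cuffdiff p = 0.00425 and q = 0.298). Its log2 fold change of -1.23 was the widest among the receptors. Itgb1, the shared beta1 chain, was at 79.4 FPKM in q2 and 126 FPKM in q1, and Itga6, its alpha6 partner, at 33.5 FPKM in q2 and 42.4 FPKM in q1 in the authors' deposited table. Bcam, a receptor for alpha5 laminins, was at 90.5 FPKM in q2 and 91.0 FPKM in q1 in the authors' deposited table. The receptor level thus ranged from nearly equal values for Bcam to a 2.35-fold lower value in q2 for Itga3.

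Of the genes through which agrin acts at the synapse, none of 5 passed and 3 lay above 0. The median log2 fold change was 0.22 as deposited and 0.13 against genes of like length. Dok7, among the 3 above 0 and named after its values were seen, had a log2 fold change of 3.60 (Cuffdiff p = 0.228 in the authors' deposited table). Its levels were low, at 0.864 FPKM in q2 and 0.0713 FPKM in q1. The agrin receptor Lrp4 was at 4.50 FPKM in q2 and 3.72 FPKM in q1, its kinase partner Musk at 2.85 FPKM in q2 and 3.05 FPKM in q1, and the receptor-clustering protein Rapsn at 6.85 FPKM in q2 and 5.88 FPKM in q1 in the authors' deposited table. Among enzymes that put the laminin-binding sugar on dystroglycan, 0 of 12 tested genes passed and the median log2 fold change was -0.18. The most abundant, B3gnt1, Tmem5 and Pomgnt1, had, in the authors' deposited table, log2 fold changes of 0.08, -0.31 and 0.51 in that order. Genes that make, trim or cut the heparan sulfate chains carried by perlecan and agrin also gave 0 of 15, with 10 below 0 and a median of -0.22. Against genes of like length, 9 of these genes lay below 0 and their median was -0.18. Hs3st1, Sulf1 and Glce led them by level, and the authors' deposited table gives them log2 fold changes of -0.58, -0.52 and -0.30.

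Proteases that can cut basement membrane held the only partner gene that passed. Mmp9, a gelatinase that degrades collagen IV, rose to 32.0 FPKM in q2, against 9.16 FPKM in q1 (Cuffdiff q = 0.0108 in the authors' deposited table). Ctss, a cathepsin of myeloid cells, was at 218 FPKM in q2 and 98.8 FPKM in q1 without passing (in the authors' deposited table, Cuffdiff p = 0.0195 and q = 0.588). Ctsb, Adamts1 and Ctsl were the most abundant others, and the authors' deposited table gives them log2 fold changes of 0.15, 0.03 and 0.43. Of 11 tested proteases, 7 lay above 0 and the median was 0.15. Against genes of like length, 4 of the 11 lay below 0 and the median was 0.22. Neutrophils and macrophages also make Mmp9, and all 8 neutrophil markers passed, with summed levels of 15058 FPKM in q2 and 1153 FPKM in q1; their part in the Mmp9 value was not tested.

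**Figure D4:**
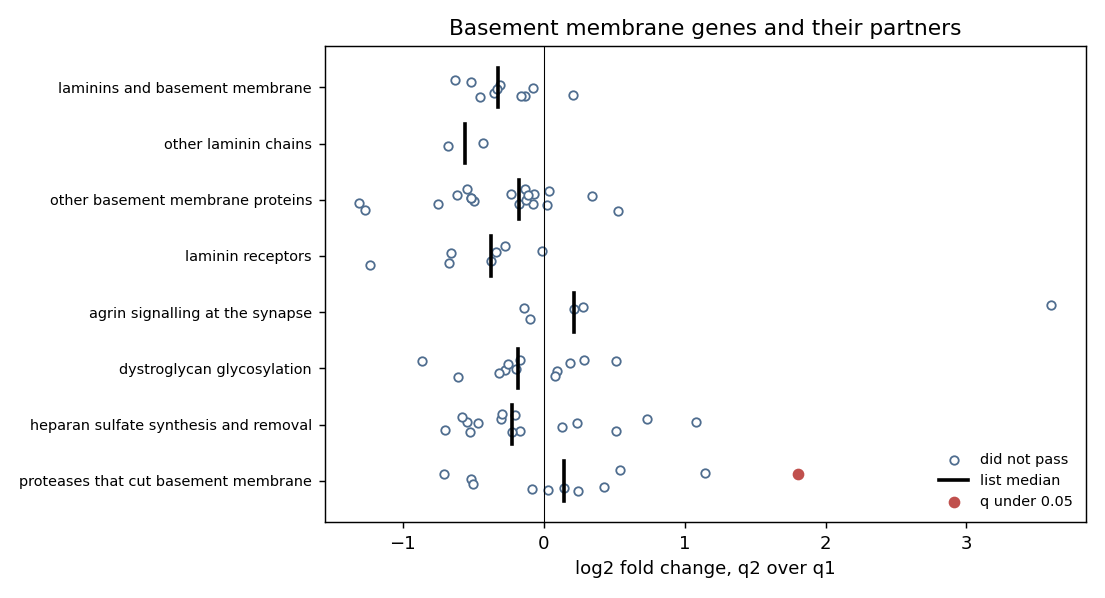
Log2 fold change, q2 over q1, of each tested gene in the 10-gene set (top row) and 7 lists of partners. Open circles did not pass, and the filled circle is Mmp9 at 1.80. The open circle farthest to the right is Dok7 at 3.60, whose levels were below 1 FPKM in both conditions. Black bars are list medians, from -0.55 for other laminin chains, with 2 tested genes, to 0.22 for agrin signalling, with 5. Points are spread up and down only for legibility.

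Several cell types of muscle make basement membrane, and the sorted cells held transcripts of more than satellite cells. The 10 endothelial markers summed to 2590.5 FPKM in q2 and 3116 FPKM in q1, all 10 lay below 0 and Plvap alone passed, lower in q2. Against genes of like length, 9 of these 10 lay below 0. The counts of markers above or below 0 given further on in this paragraph are as deposited. On the length-centred scale, 5 of 8 pericyte and smooth muscle markers and 4 of 7 fibroblast markers lay below 0. So did 4 of 7 Schwann cell markers, 5 of 9 satellite cell markers and 0 of 6 muscle fibre markers. Of the 5 macrophage markers with a length, 1 lay below 0 on that scale. The 8 pericyte and smooth muscle markers summed to 4271 FPKM in q2 and 3073 FPKM in q1, but 5 of the 8 lay below 0, the median log2 fold change was -0.20, and the sum is mostly Rgs5, at 3553 FPKM in q2 and 2279 FPKM in q1 in the authors' deposited table. The 7 fibroblast markers summed to 2879 FPKM in q2 and 2999.7 FPKM in q1, with 5 below 0, and the 7 Schwann cell markers to 1489.8 FPKM in q2 and 1409.8 FPKM in q1, with 3 below 0; none passed in these 3 lists. Muscle fibre markers, 6 in number, summed to 3126 FPKM in q2 and 1637 FPKM in q1, all 6 above 0 and none passed. For the 9 satellite cell markers the sums were 365 FPKM in q2 and 292 FPKM in q1, most of it Sdc4, the sorting marker; 5 of the 9 lay below 0 and none passed. Pax7, the defining transcription factor of satellite cells, named after its values were seen, was at 0.854 FPKM in q2 and 1.16 FPKM in q1 in the authors' deposited table. Macrophage markers, with 6 tested and none passed, summed to 2261 FPKM in q2 and 1112 FPKM in q1. Of these 6, 3 lay above and 3 below 0 with a median log2 fold change of 0.11, and most of the sum is Lyz2, at 1504 FPKM in q2 and 633 FPKM in q1, and Cd14, at 525 FPKM in q2 and 227 FPKM in q1 in the authors' deposited table. No marker of these lists was at 0 in either condition. Fewer cells of a type and less RNA per cell cannot be told apart in such bulk samples, and the part of cell make-up in the values of the 10 basement membrane genes was not tested.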

How the data were processed

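The submitters' processing notes name the tools TopHat2 2.0.9 and Cufflinks 2.2.1 and the mm9 build. Gene positions in the table overlapped the GRCm38 gene of the same symbol and chromosome for 99.5% of 21539 genes, so positions are given in GRCm38, 1-based. No source used here states the annotation, library normalization or strand setting. Per the file headers, the authors deposited 1 pooled value per condition, taken as FPKM from the Cuffdiff layout since no unit is named, the log2 fold change of q2 over q1, a test statistic (a score, not used here), a p-value and a q-value. The deposited q-value equalled the Benjamini-Hochberg value within 1e-05 for all 14858 genes with status OK, which count as tested. No test between samples was run, since the table holds no value per sample. A gene passed at a q below 0.05.

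From the deposited values, medians, sums, shares and ratios were computed with Python 3.11.15 and pandas 2.3.3. Medians leave out genes with a value of 0. Lengths, exons and 3' untranslated regions come from protein-coding transcripts of GENCODE vM21; 91.1% of tested genes of at least 5 FPKM had a length. Length centring subtracts the median log2 fold change of 1 of 10 length classes. Of the 12 tested dystroglycan genes only 8 had a length, so length centring is void for that list. The adjustment and the centring were tested on simulated data. Named genes are the 10, 4 other laminin chains (1 more gene of that list is not reported here) and, from each partner list, genes with an unadjusted p below 0.05 and the 3 with the highest mean; marker lists are given as sums. Members and lists were chosen with earlier results of these data known.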

Additional observations from a re-analysis of the deposited data

How the results depend on the processing

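No paired analysis was possible because the table holds 1 pooled value per condition and none per sample; for the same reason no replicate could be left out. The count of 0 passed among the 10 genes stayed 0 at a q below 0.1 and when genes under 1 FPKM were left out and p-values adjusted again; the partner lists kept a count of 1 and the marker lists a count of 9 in both. None of the 10 had an unadjusted p below 0.05 or below 0.01. The median log2 fold change of the 10, -0.32 as deposited, lay between -0.33 and -0.31 with pseudocounts of 0.1 and 1 FPKM, centred on all tested genes, centred on tested genes of at least 10 FPKM, or without Nid2. Centred on genes of like transcript length, chosen after seeing the data, it was -0.0946. In that setting Lamb2 was at 0.0116, Nid1 at 0.103 and Agrn at 0.0460, above 0 in place of below; the other 7 kept their sign. The count below 0 was 9 in all centrings but this one, where it was 6, and 6 lay below -0.2 as deposited. No pseudocount or centring on all tested genes turned the sign of any of the 10. Depth per sample is unknown, and no gene of 5 to 70 FPKM with a difference as small as these passed the authors' test.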

Other observations

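The lower values of longer transcripts in q2 held at every level of expression examined. For genes with 5 to 20 FPKM on the higher side, the median log2 fold change was 0.11 for transcripts of at most 2000 bases and -0.37 for those over 9000 bases. For 20 to 100 FPKM the medians were 0.09 and -0.33 in the same classes, over 1024 and 38 genes. From 100 FPKM up, the median was 0.11 for transcripts of at most 2000 bases and -0.20 for 5000 to 9000 bases, where that longer class held 38 genes; only 5 genes were longer.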
